A study of Homo sapiens with 6 samples.

Results

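The plasminogen activation system was examined through 9 genes, chosen by name: the activators PLAT and PLAU, the urokinase receptor PLAUR, the inhibitors SERPINE2, SERPINB2 and SERPINB8, and the plasminogen-binding surface proteins S100A10, ANXA2 and PLGRKT. Each matched 1 row of the 62703 genes in the count table. The RNA came from A549, a human lung adenocarcinoma cell line long in use, cultured in a hydrogel named AlgLung (3 libraries) or in one named S-AlgLung (3 libraries). The labels do not spell out the S, and the series title concerns sulfation of the extracellular matrix. All cells came from this 1 line, maintained in DMEM/F12 with 10% fetal bovine serum, and no other treatment is given for either group. Nothing in the labels states that the replicates were cultured separately, so the p-values cover library-to-library spread alone, and that may be technical.

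Plasminogen is a circulating zymogen that tissue plasminogen activator (PLAT) and urokinase (PLAU) cleave to plasmin, a protease that dissolves fibrin and degrades matrix proteins. Urokinase acts at the cell surface when bound to its receptor PLAUR, and serpins trap the activators in inactive complexes. Plasminogen itself docks on cells through proteins with exposed lysines, among them S100A10, which the cell holds at the membrane in a complex with annexin A2, and PLGRKT. In epithelial tumours the urokinase branch is known for its role in pericellular proteolysis and cell migration.

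Total counts ranged from 22978408 to 26495444 per library. S-AlgLung replicate 3 stood apart on the second principal component (49.22, against -33.36 to 21.8 in the others; 28.9% of the variance). In that library MALAT1 and NEAT1, nuclear long noncoding RNAs, took 0.0264% of the counts, against at most 0.00736% elsewhere. The epithelial markers EPCAM, KRT8, KRT18, KRT19 and CDH1 summed to 10034 to 13216 CPM (counts scaled to a common library total) in AlgLung, against 4455 to 11996 in S-AlgLung. Most of this was KRT8 (means of 7352 and 5125 CPM) and KRT18 (3723 and 2535), and mean KRT19 was also lower in S-AlgLung (509 and 445). EPCAM (1.95 and 3.83) and CDH1 (65.1 and 82.0) had higher means in S-AlgLung. None of these markers was called in either direction. The 5 blood cell markers summed to 30.7 to 38.5 and 43.2 to 71.2 CPM, nearly all of it CD14. CD14 was called higher in S-AlgLung (log2 fold change 0.85, adjusted p = 0.0225, edgeR), and its part in the results below was not tested. PTPRC had 5, CD3E 2, HBB 11 and CD79A 97 counts in all 6 libraries. The 4 endothelial markers summed to at most 3.77 CPM and the 5 fibroblast markers to at most 9.06. In counts over all libraries KDR was at 1, VWF at 5, CDH5 at 177 and PECAM1 at 274. PDGFRB was at 8, COL1A2 at 9, PDGFRA at 28, COL1A1 at 440 and COL3A1 at 648. None of the endothelial and fibroblast markers tested was called.

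Both activator genes were lower in S-AlgLung, while the urokinase receptor, the inhibitors and the plasminogen-binding genes did not pass the test. Of the 9 genes, 8 had enough counts to test with edgeR's quasi-likelihood test, 2 were called lower at a Benjamini-Hochberg adjusted p under 0.05, and 0 were called higher. Among all 18544 tested genes, 1.99% were called lower and 3.15% higher, 5.14% in all. DESeq2 and limma-voom also called 2 members lower and 0 higher. At an unadjusted p under 0.05, 3 members were lower and 0 higher, against 1078 and 1687 of all 18544 tested genes. In 4 of the 8 members the 2 groups of 3 values were fully separate, against 18.4% of all tested genes. The median log2 fold change (S-AlgLung minus AlgLung) of the 8 was -0.43, against 0.03 over all tested genes. The genes were chosen with earlier results of these data known, so these counts are descriptions.

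**Figure D1:**
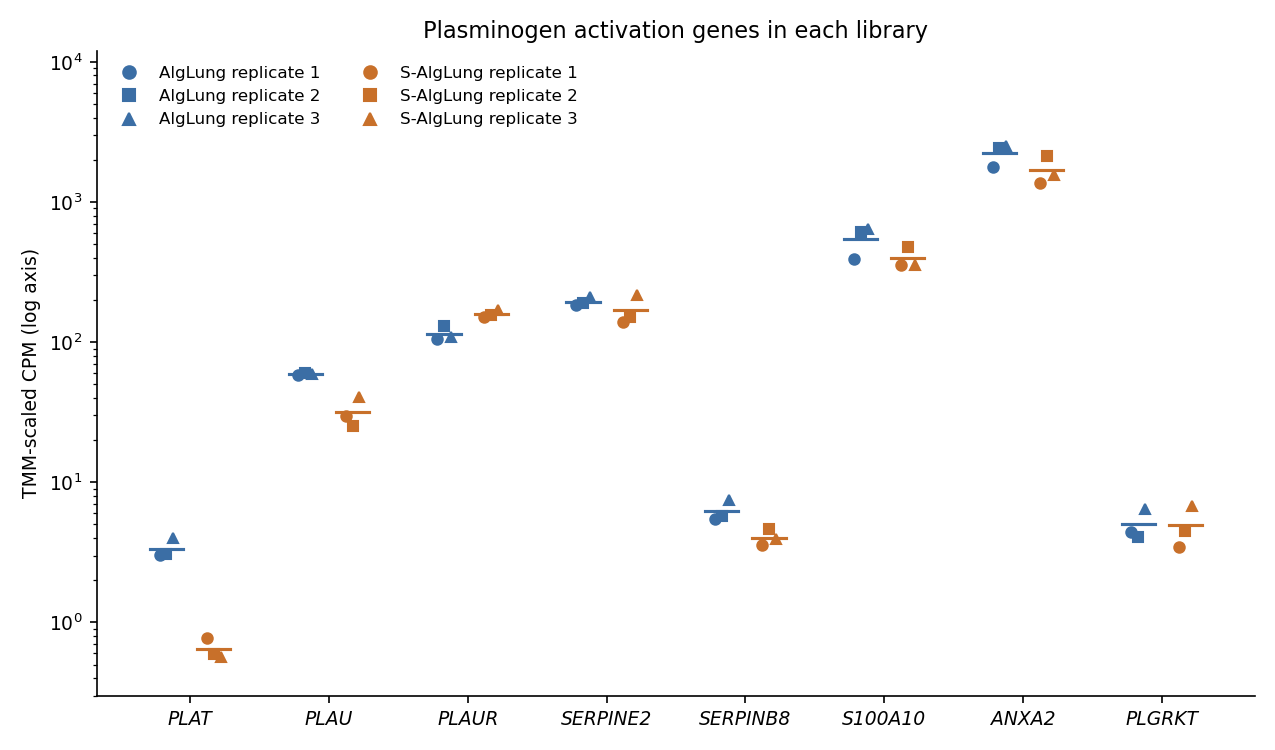
Level of each tested gene in each library, as TMM-scaled CPM on a log axis. Points are libraries and lines are group means (n = 3). The AlgLung points for PLAT (3.03 to 4.02 CPM) lie above all S-AlgLung points (0.569 to 0.771), and the PLAU groups are also separate, whereas those of SERPINE2, S100A10, ANXA2 and PLGRKT overlap.

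PLAT, the gene of tissue plasminogen activator (chromosome 8, 42174718 to 42207709, GRCh38), had the largest difference of the 8. It was at 3.03, 3.06 and 4.02 CPM in AlgLung replicates 1, 2 and 3, and at 0.771, 0.591 and 0.569 CPM in S-AlgLung replicates 1, 2 and 3. The highest S-AlgLung library was thus below the lowest AlgLung library. The log2 fold change was -2.39 (SE 0.35, 95% interval -3.10 to -1.68, adjusted p = 3.729e-05, edgeR), which is 5.23-fold lower. In bulk RNA, fewer expressing cells and less RNA per cell cannot be told apart. PLAT was rare, with 68 to 97 reads per AlgLung library and 14 to 17 per S-AlgLung library. Its call held in all 17 alternative fits, with log2 fold changes from -2.53 to -2.29 when 1 library was left out and adjusted p from 4.442e-09 to 0.001855 over all 17.

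PLAU, the gene of urokinase (chromosome 10, 73909177 to 73917496), was the more abundant activator gene and fell by less. AlgLung libraries were at 57.8, 60.6 and 59.2 CPM and S-AlgLung libraries at 29.6, 25.4 and 40.6 CPM. The AlgLung values lay within 3 CPM of each other, and S-AlgLung replicate 3, the library that stood apart, was nearest to them. The mean went from 59.2 ± 1.38 to 31.8 ± 7.85 CPM (SD, n = 3). The log2 fold change was -0.89 (SE 0.22, 95% interval -1.35 to -0.44, adjusted p = 0.01279, edgeR) or 1.86-fold lower. Without S-AlgLung replicate 3 it was -1.14 (adjusted p = 8.776e-06). It missed the threshold with AlgLung replicate 2 left out (-0.88, adjusted p = 0.0716), and likewise with S-AlgLung replicate 1 (-0.84, 0.0761) or 2 (-0.76, 0.0868) left out. Over all alternatives the adjusted p ran from 8.776e-06 to 0.0868.

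The PLAU locus holds a second gene, C10orf55, on the other strand. The exons of the pair share 915 bases, 31.0% of the PLAU gene model, and whether the counting used strand is not stated in the sources at hand. C10orf55 had 0.406 times the counts of PLAU over all libraries, and the ratio was similar in both hydrogels (0.384 to 0.438 in AlgLung, 0.362 to 0.429 in S-AlgLung). C10orf55 was itself lower by a log2 fold change of -0.97 (adjusted p = 0.005976, edgeR). With the C10orf55 count subtracted from that of PLAU in each library, PLAU was still called lower (-0.84, adjusted p = 0.0199, edgeR). Because the ratio was similar in all libraries, this subtraction could hardly change the fold change. It therefore does not show how the overlap bears on PLAU.

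Levels of different genes were compared per length, in TPM (counts per kilobase of the gene length in the table, scaled to the same total in each library). PLAU was at 48.7 ± 1.87 TPM in AlgLung and 24.4 ± 10.2 in S-AlgLung, and PLAT at 1.06 ± 0.214 and 0.180 ± 0.0239 TPM (SD, n = 3). Urokinase mRNA therefore made up nearly all activator mRNA in both hydrogels. The PLAT share of PLAT plus PLAU was 1.95%, 1.88% and 2.51% in the AlgLung libraries and 0.980%, 0.876% and 0.529% in the S-AlgLung libraries, and these groups did not overlap. With the length of the principal transcript of each gene in place of the merged exons, a choice made after seeing the data, the AlgLung share was 4.15% to 5.50% and the S-AlgLung share 1.19% to 2.19%.

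PLAUR, the gene of the membrane-anchored urokinase receptor (chromosome 19, 43646095 to 43670547), was the only member with a positive log2 fold change. It was at 105, 130 and 109 CPM in AlgLung and at 150, 156 and 169 CPM in S-AlgLung, and the groups did not overlap. The difference was not called (log2 fold change 0.47, SE 0.23, 95% interval -0.01 to 0.94, adjusted p = 0.348, edgeR), and it was not called in any of the 17 alternatives (0.36 to 0.56 when 1 library was left out, adjusted p from 0.236 to 0.884). Receptor and ligand mRNA shifted relative to each other within each library. PLAUR had 1.82, 2.14 and 1.85 reads for each PLAU read in AlgLung and 5.09, 6.16 and 4.17 in S-AlgLung. The lowest S-AlgLung ratio was above the highest AlgLung ratio, and S-AlgLung replicate 3 had the lowest of its group. This ratio does not depend on how libraries are scaled. It was set up after the values were seen and was not tested.

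**Figure D2:**
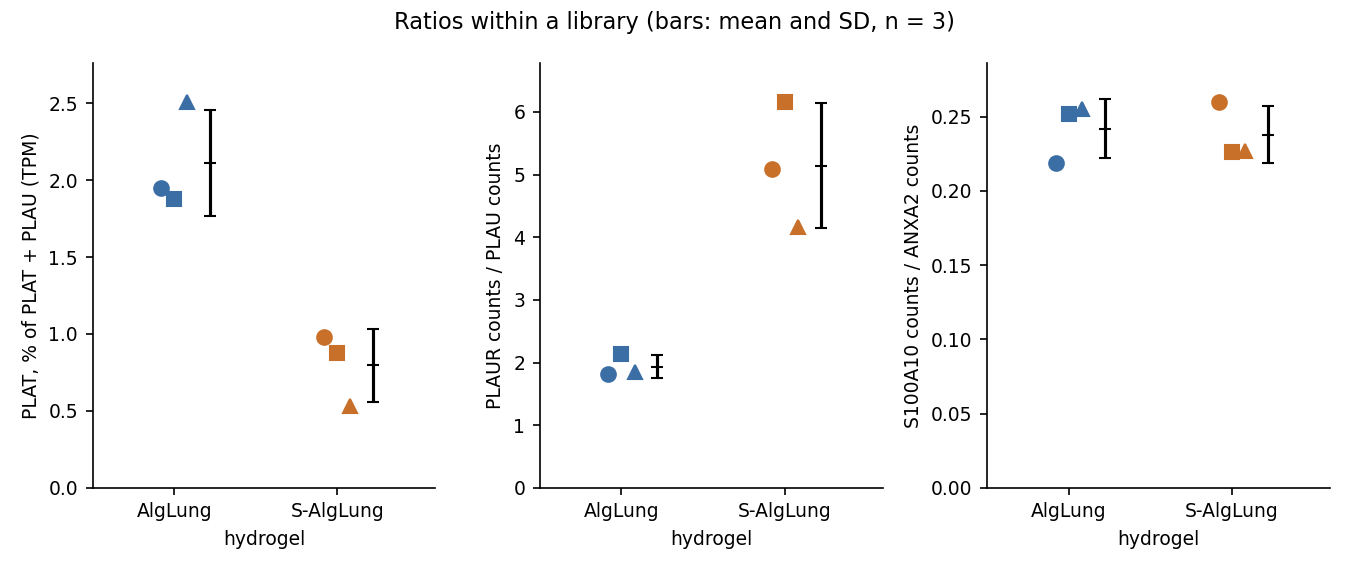
Ratios of member genes within each library: PLAT as a percent of PLAT plus PLAU (TPM), PLAUR counts per PLAU count, and S100A10 counts per ANXA2 count. Circles, squares and triangles are replicates 1, 2 and 3, and bars are the mean and SD (n = 3). The first ratio is lower and the second higher in every S-AlgLung library, while the S100A10 to ANXA2 ratio overlaps between hydrogels (0.219 to 0.255 and 0.226 to 0.260).

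Among the inhibitors, SERPINE2 was abundant, SERPINB8 low and SERPINB2 close to absent. SERPINE2 (chromosome 2, 223975045 to 224039318), the gene of protease nexin 1, which inhibits thrombin and both plasminogen activators, was at 183, 190 and 209 CPM in AlgLung and 139, 151 and 217 CPM in S-AlgLung. Of the S-AlgLung libraries only replicate 3 reached the AlgLung range, where it was the highest of all 6. The log2 fold change was -0.20 (SE 0.25, 95% interval -0.70 to 0.30, adjusted p = 0.805, edgeR), and -0.45 without S-AlgLung replicate 3 (adjusted p = 0.219). PLAU relative to SERPINE2, in TPM, was 0.957, 0.969 and 0.860 in AlgLung and 0.646, 0.509 and 0.569 in S-AlgLung, so the library that was high in both genes did not stand apart in their ratio. This ratio too was set up after the values were seen and was not tested.

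SERPINB8 (chromosome 18, 63970029 to 64019779), a clade B serpin that inhibits furin and other serine proteases, was at 5.48, 5.76 and 7.49 CPM in AlgLung and 3.58, 4.60 and 3.91 CPM in S-AlgLung. All S-AlgLung values were below all AlgLung values, but the difference was not called (log2 fold change -0.63, SE 0.26, 95% interval -1.15 to -0.11, unadjusted p = 0.0201, adjusted p = 0.206, edgeR). HMSD overlaps its exons on the same strand over 370 bases and had 0.247 times its counts. A gene without a symbol on the other strand had 0.0907 times its counts. SERPINB2 (chromosome 18, 63871692 to 63903888), the gene of plasminogen activator inhibitor 2, which inhibits urokinase, had 1 read in all 6 libraries, in S-AlgLung replicate 2. In the other libraries a count of 0 allows up to 3 reads, or 0.107 to 0.136 CPM, for counting error only. Its single read was not tested.

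S100A10 and ANXA2 were the most abundant members and moved together across libraries. S100A10 (chromosome 1, 151982915 to 151993859), which carries the C-terminal lysine that binds plasminogen, was at 389, 611 and 639 CPM in AlgLung and 358, 479 and 356 CPM in S-AlgLung. ANXA2 (chromosome 15, 60347134 to 60402883), the calcium-dependent membrane-binding partner of S100A10, was at 1776, 2430 and 2505 CPM in AlgLung and 1377, 2115 and 1571 CPM in S-AlgLung. In both genes AlgLung replicate 1 was the lowest of its group, S-AlgLung replicate 2 the highest of its group, and the groups overlapped. Neither was called: the log2 fold change was -0.46 (SE 0.27, 95% interval -1.003 to 0.09, adjusted p = 0.460, edgeR) for S100A10. It was -0.41 (SE 0.28, 95% interval -0.98 to 0.17, adjusted p = 0.573, edgeR) for ANXA2.

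There were 0.242 ± 0.0198 S100A10 reads per ANXA2 read in AlgLung and 0.238 ± 0.0193 in S-AlgLung (SD, n = 3), a difference smaller than the spread between replicates. Over the 6 libraries the log2 CPM of the pair correlated at Pearson r = 0.961, given as a description of libraries that include both hydrogels. ANXA2 has near-identical processed pseudogenes, and reads can be split between copies. ANXA2P2 had 2917 and ANXA2P1 42 reads in all libraries and ANXA2P3 had 0, against 285554 for ANXA2. ANXA2P2 was at 22.0 ± 9.37 CPM in AlgLung against 18.3 ± 5.22 with S-AlgLung (log2 fold change -0.27, adjusted p = 0.745, edgeR). With the pseudogene reads added, the ANXA2 difference was -0.41 (adjusted p = 0.576).

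PLGRKT (chromosome 9, 5357971 to 5437925), a transmembrane plasminogen receptor with a C-terminal lysine, was at 4.45, 4.09 and 6.46 CPM in AlgLung and 3.45, 4.52 and 6.79 CPM in S-AlgLung. The groups overlapped almost fully, and replicate 3 was the highest in each hydrogel. The log2 fold change was -0.02 (SE 0.28, 95% interval -0.59 to 0.56, adjusted p = 0.992, edgeR). This interval leaves room for differences of up to about 1.47-fold in one direction and 0.664-fold in the other.

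**Figure D3:**
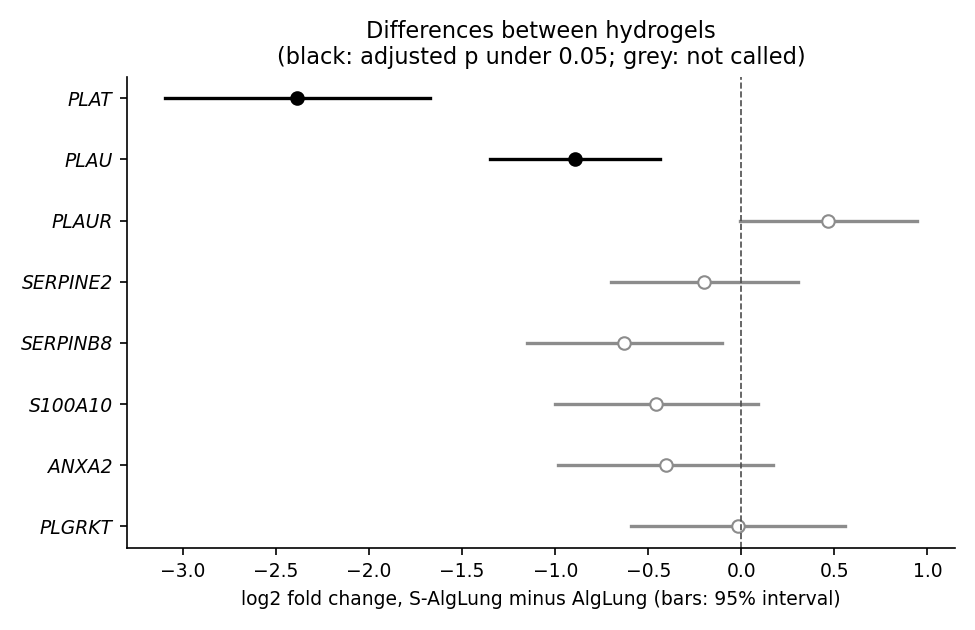
Log2 fold change of each tested gene (x axis, S-AlgLung minus AlgLung) with its 95% interval from edgeR (bars), black where the adjusted p was under 0.05. The intervals of PLAT (-3.10 to -1.68) and PLAU (-1.35 to -0.44) lie below 0 in black; that of SERPINB8 (-1.15 to -0.11) also lies below 0 but is grey, since its adjusted p was 0.206.

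In order of mean TPM in AlgLung, S100A10 (1306 ± 319) and ANXA2 (468 ± 80.9) were followed by PLAUR (62.2 ± 3.76), SERPINE2 (52.6 ± 5.41) and PLAU (48.7 ± 1.87; SD, n = 3). Then came PLGRKT (7.92 ± 2.33), SERPINB8 (2.64 ± 0.547), PLAT (1.06 ± 0.214) and SERPINB2 (0 in all 3 libraries). The ranges of SERPINE2 (48.2 to 58.7) and PLAU (46.7 to 50.4) overlapped, while those of the other neighbours did not. The order in S-AlgLung was the same, with SERPINE2 (30.6 to 63.4) and PLAU (17.3 to 36.1) again overlapping. Part of the order depended on the length used. The table gives ANXA2 11574 bases of merged exons, against 1676 in its principal transcript. With principal transcript lengths ANXA2 (2299 ± 359 TPM in AlgLung) stood above S100A10 (781 ± 178), and SERPINE2 (153 ± 15.6) above PLAUR (128 ± 5.31) in AlgLung but below it in S-AlgLung (125 ± 51.1 and 163 ± 34.9).

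The promoters were searched for short motifs because PLAUR and SERPINB2 are known targets of AP-1, the JUN and FOS transcription factor family. RefSeq promoter sequences (GRCh38.p14) matched 8 of the 9 genes; PLAT was not among them. The AP-1 type motif TGANTCA, which reads the same on both strands, was found in the 250 bases before a start site of 4 of the 8 genes, PLAUR, SERPINB2, SERPINB8 and ANXA2. It was found in 6.57% of 35116 promoter windows of that length. The motif was picked for PLAUR and SERPINB2, so their matches were foreseen. Shares of windows, here and below, count single windows, whereas PLAU and SERPINE2 had several windows each. These figures are therefore no measure of enrichment. The matches are shown with 10 bases on either side, on the strand of the gene and 5′ to 3′, with the motif in capitals.
PLAUR: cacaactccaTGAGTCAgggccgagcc
SERPINB2: agtaaaatgtTGAATCActcaaaggac
SERPINB8, distal match: gagtcaaacgTGAATCAacggtgaaaa
SERPINB8, proximal match: cgaacggttcTGAGTCAtctgccggaa
ANXA2: cgggccggggTGAGTCAcccctgactt
These windows lie at chr19:43670339-43670365 (minus strand), chr18:63887593-63887619 (plus), chr18:63969886-63969912 (plus), chr18:63970043-63970069 (plus) and chr15:60398097-60398123 (minus). The motif starts 186, 102, 185, 28 and 127 bases before the respective start site.

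PLAUR, SERPINB8 and ANXA2 also share the variant TGAGTCA, while SERPINB2 and the distal SERPINB8 match read TGAATCA. Among the 4 genes with the motif, PLAUR was at 0.47, SERPINB8 at -0.63 and ANXA2 at -0.41 in log2 fold change. None of these differences was called, and SERPINB2 was not tested. The called gene PLAU had no TGANTCA in either of its promoter windows. Bases outside the windows were not searched, so whether AP-1 acts on PLAU was not tested. The GC-box motif GGGCGG, searched on both strands, was found for PLAU, SERPINE2, S100A10 and ANXA2 and in 42.6% of all windows. PLAU held 3 copies within the last 66 bases before 1 of its start sites, of which the one nearest to the start lies in this stretch (chr10:73911082-73911107, plus strand, motif in capitals), printed because PLAU is the called member with a promoter sequence.
PLAU: ggcggcgccgGGGCGGgccctgatat
The TATAAA motif, on either strand, was found for SERPINB2, SERPINB8 and ANXA2 and in 10.7% of all windows; it does not overlap the other motifs. A match describes letters in a window and is no binding site by itself.

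Other genes of the pathway were taken from lists drawn up by name. Earlier results of these data were known by then, so the numbers called in each list are descriptions. Of 12 further activators, zymogens and inhibitors, 8 could be tested, 2 rose and 0 fell. Of all tested genes 3.15% were called higher and 1.99% lower. The median log2 fold change of the 8 was 0.26, against 0.03 over all tested genes. DESeq2 and limma-voom also called 2 of them higher and 0 lower. At an unadjusted p under 0.05, 3 were higher and 0 lower, against 1687 and 1078 of all 18544 tested genes. CPB2 (chromosome 13, 46053186 to 46105033), the gene of a carboxypeptidase that removes the lysines to which plasminogen binds on fibrin, was at 0.767, 0.450 and 0.745 CPM in AlgLung. It was at 2.90, 4.01 and 3.38 CPM in S-AlgLung, and every S-AlgLung library was above every AlgLung library. It rose 5.18-fold (log2 fold change 2.37, SE 0.35, adjusted p = 4.349e-05, edgeR) and was called in all 17 alternatives (adjusted p from 6.524e-09 to 0.004209).

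HABP2 (chromosome 10, 113550837 to 113589602), the gene of a plasma protease that can activate urokinase, rose from 36.9 ± 5.59 to 66.7 ± 15.9 CPM (SD, n = 3; log2 fold change 0.85, SE 0.23, adjusted p = 0.02299, edgeR). The call did not hold when AlgLung replicate 1, 2 or 3 was omitted (adjusted p = 0.232, 0.0646 and 0.230), when S-AlgLung replicate 1 or 2 was omitted (0.0617 and 0.147) or with total-count scaling (0.0680). Its log2 fold change in these fits was 0.66 to 0.98. PLG, the gene of plasminogen, had 2 reads in all 6 libraries, so almost no mRNA of the zymogen was found in these cells. SERPINF2, the gene of the main plasmin inhibitor, was at 13.6 ± 1.48 and 22.1 ± 5.23 CPM, with no overlap between groups (log2 fold change 0.70, SE 0.22, adjusted p = 0.0692, edgeR). SERPINF2 was called higher in only 2 of 17 alternative fits. These were the fit without S-AlgLung replicate 3 (0.81, adjusted p = 0.003259, edgeR) and the fit with a replicate block (0.68, 0.0219). Over all 17 its adjusted p reached 0.457. PLG and SERPINF2 were singled out after their values were seen.

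Of 18 genes of receptors, uptake proteins and surface partners, all tested, 1 rose and 0 fell with edgeR (median 0.05). This is close to the share over all tested genes, 3.15% higher and 1.99% lower. At an unadjusted p under 0.05, 1 of the 18 was higher and 3 lower, against 1687 and 1078 of all 18544 tested genes. DESeq2 called 1 higher and 1 lower, limma-voom 1 and 0. SPINT1, a membrane-bound inhibitor of the hepatocyte growth factor activator and of matriptase, went up from a mean of 5.85 ± 0.847 to one of 11.8 ± 2.42 CPM (log2 fold change 1.01, adjusted p = 0.008496, edgeR). The call did not hold when AlgLung replicate 1 or 3 (adjusted p = 0.0539 and 0.134) or S-AlgLung replicate 1 (0.0786) was omitted, or with total-count scaling (0.0678), at log2 fold changes of 0.97, 0.86, 0.86 and 0.89. Of 11 other clade B serpins, 5 could be tested and 0 were called by edgeR, DESeq2 or limma-voom, with 0 also at an unadjusted p under 0.05 (median -0.12). SERPINB7 was at 1.10 ± 0.263 and 0.700 ± 0.256 CPM (log2 fold change -0.64, adjusted p = 0.531) and SERPINB6 at 96.7 ± 22.2 and 110.5 ± 23.3 CPM (0.19, adjusted p = 0.817).

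The 3 fibrinogen chains, whose product fibrin is the classical substrate of plasmin, rose by similar amounts. They were the 3 genes called higher of 14 tested from a list of 17 substrates and activated proteins. In that list 0 were called lower and the median was 0.22, against 0.03 over all tested genes. Of all tested genes 3.15% were called higher and 1.99% lower. The 3 chains lie close together on chromosome 4 (154563011 to 154612967). FGA (chromosome 4, 154583128 to 154590745) was at 645, 726 and 735 CPM in AlgLung and 1479, 1792 and 1693 CPM in S-AlgLung. It rose 2.36-fold (log2 fold change 1.24, SE 0.27, adjusted p = 0.00342, edgeR). FGB was at 385 ± 41.7 and 833 ± 74.3 CPM and rose 2.16-fold (adjusted p = 0.006587). FGG was at 302 ± 31.0 and 672 ± 93.8 CPM and rose 2.22-fold (adjusted p = 0.004639). In each of the 3 genes the groups did not overlap, as in 6 of the 14 tested genes of the list and 18.4% of all tested genes. FGA was not called when AlgLung replicate 1 or 3 was omitted (adjusted p = 0.0545 and 0.0648). The calls of FGB (0.0783 and 0.127) and FGG (0.0675 and 0.0988) were lost without AlgLung replicate 2 or 3. In these fits the log2 fold change was 1.13 and 1.22 for FGA, 1.03 and 1.06 for FGB, and 1.08 and 1.09 for FGG.

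**Figure D4:**
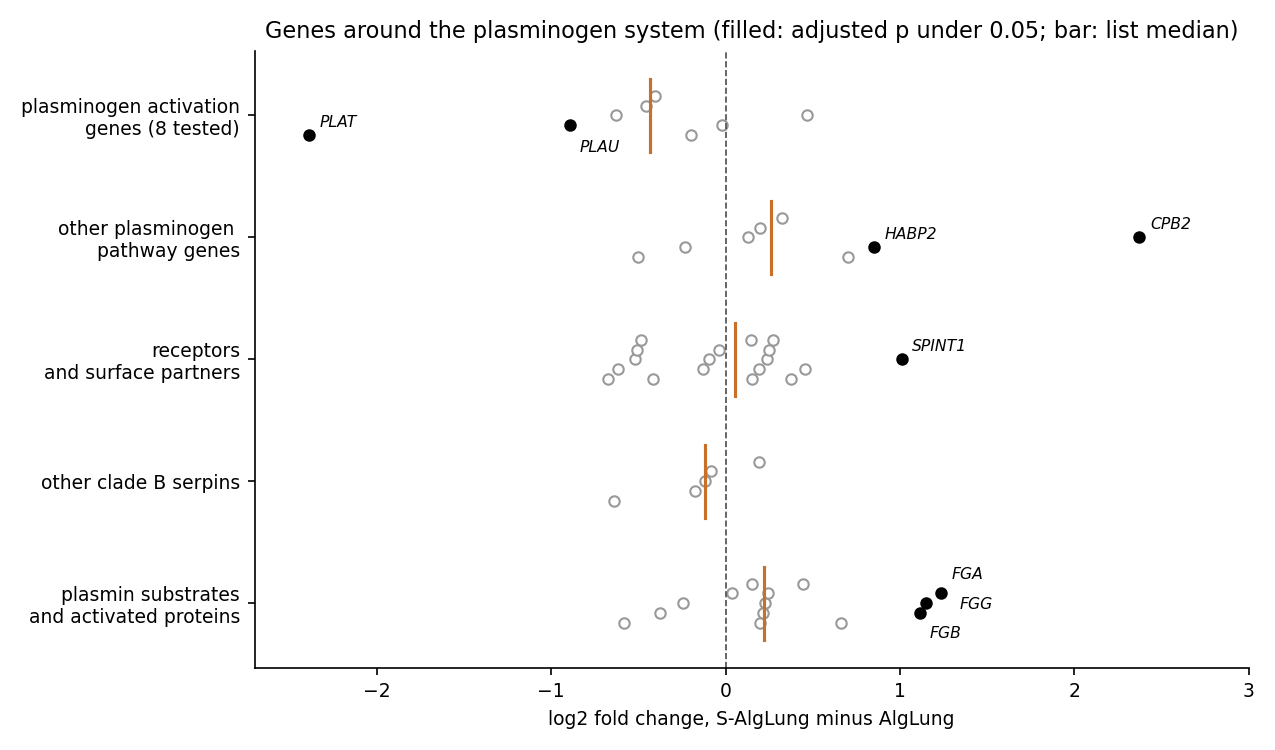
Log2 fold changes (x axis, S-AlgLung minus AlgLung) of the tested genes among the plasminogen activation genes and in 4 lists around them: other pathway genes, receptors and surface partners, other clade B serpins, and plasmin substrates and activated proteins. Filled points had an adjusted p under 0.05 in edgeR, and vertical bars are list medians. In these groups PLAT and PLAU are the filled points below 0, while CPB2, HABP2, SPINT1 and the fibrinogen genes FGA, FGB and FGG are those above 0.

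The genes whose levels most resembled those of 3 members were sought among 11609 or 11610 tested genes with a symbol and a mean log2 CPM of at least 2, by Pearson correlation of log2 CPM over the 6 libraries. For PLAT these were L1CAM (r = 0.997), LYRM4-AS1 (0.993) and ACHE (0.992). The neural adhesion gene L1CAM and the acetylcholinesterase gene ACHE had log2 fold changes of -2.59 and -2.21, close in size to that of PLAT, whereas LYRM4-AS1 was at -0.58 (adjusted p = 0.236, edgeR). For PLAU they were IL18 (0.994), an interleukin gene, LZTS3 (0.991) and EDA2R (0.990), a receptor of the tumour necrosis factor receptor family, at -0.78, -1.05 and -1.25. For SERPINE2 they were PDRG1 (0.997), PCOLCE2 (0.994) and NOS1 (0.991), at -0.18, -0.16 and -0.24. These are descriptions over 6 libraries that include the difference between hydrogels.

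Among the members themselves, PLAT correlated with PLAU at r = 0.893 and with PLAUR at -0.931, and SERPINE2 correlated with PLGRKT at 0.829 and with PLAUR at -0.289, again over 6 libraries and as a description.

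**Figure D5:**
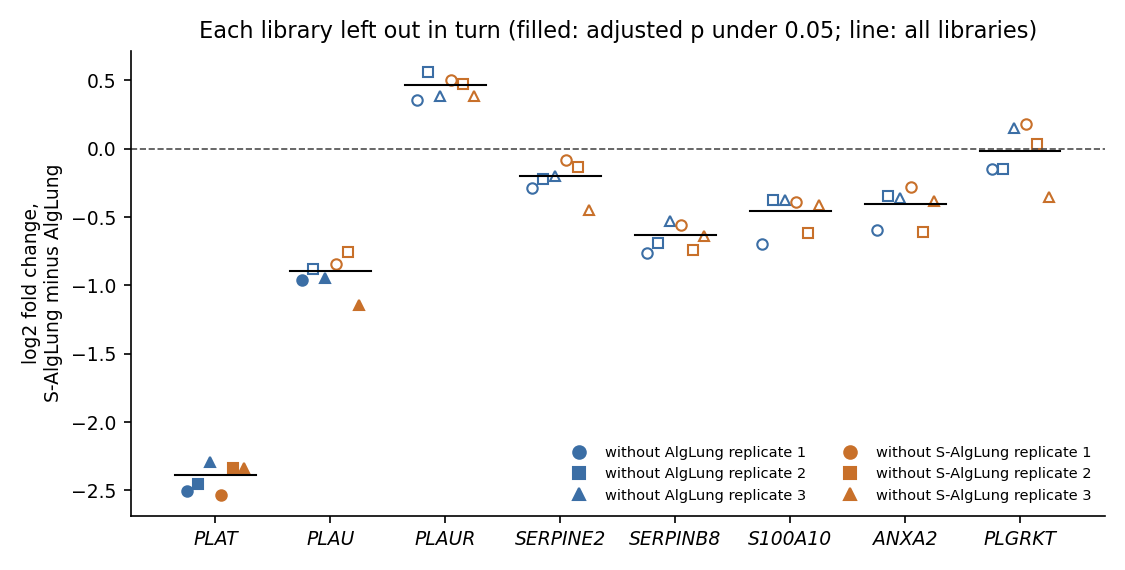
Log2 fold change (y axis, S-AlgLung minus AlgLung) of each tested gene with 1 library left out in turn; points are the 6 fits, filled where the adjusted p was under 0.05, and lines are the values with all libraries. PLAT stays between -2.53 and -2.29 and is filled in all 6 fits, PLAU is filled in 3 of the 6, and PLGRKT lies on either side of 0.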

How the data were processed

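Per the labels' protocols, RNA was extracted with TRIzol and a column kit, and a service provider built, sequenced and adaptor-filtered the libraries. Per the submitters' processing notes, reads were aligned with STAR 2.7.3a to GRCh38 and counted per gene with featureCounts; neither the annotation nor the strand option is stated in the sources at hand. The authors deposited whole-number counts per gene, not normalized, and merged-exon gene lengths. AlgLung replicate 1 had 2 columns, with 0 genes differing, counted as 1 sample.

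Genes passing filterByExpr (minimum count 10; 18544 genes) were scaled by TMM and entered edgeR 4.0.16 (quasi-likelihood F test, no block) in R 4.3.3, Benjamini-Hochberg adjusted over all tested genes and called under 0.05. Standard errors were approximated from the log2 fold change and the F statistic. CPM are TMM-scaled; log2 CPM for correlations used a prior count of 2. limma-voom (3.58.1) and DESeq2 (1.42.0) were alternatives. The edgeR script was checked on simulated counts with 3 libraries per group. It recovered 10.7% of 1.5-fold, 62.7% of 2-fold and 98.7% of 4-fold changes, so a small difference that is not called may still be present. The simulation changed a smaller share of genes than was called in these data, and only genes above a minimum level. Recovery in these data may therefore differ.

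Members, lists and motifs were chosen with earlier results of these data known. Named genes were all members, up to 4 called genes with the smallest p per list (or 2 where none was called), pseudogene copies of ANXA2, genes overlapping a member, and the 3 genes most correlated with PLAT, PLAU and SERPINE2. Gene IDs matched the name table for 62625 genes. Principal transcript lengths came from GENCODE release 29.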

Additional observations from a re-analysis of the deposited data

How the results depend on the processing

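With all libraries 584 genes were called higher and 369 lower. Total-count scaling gave 333 higher and 335 lower and moved the median log2 fold change of all genes from 0.03 to -0.07, and an adjusted p under 0.01 gave 323 and 217. With 1 library left out, 289 to 891 genes were called higher and 244 to 662 lower. The 2 members called lower became 1 to 2 when 1 library was left out, and 1 at an adjusted p under 0.01, where PLAU (-0.89, adjusted p = 0.01279) missed the threshold; its leave-one-out range was -1.14 to -0.76. PLAT kept its direction and call throughout. PLGRKT changed sign when AlgLung replicate 3 was omitted, and also when either S-AlgLung replicate 1 or 2 was (range -0.36 to 0.18), and SERPINB6 without AlgLung replicate 1 (-0.029, range up to 0.33). All other tested members kept their direction in all 17 alternatives. Fits with a library left out hold fewer samples; the cause of the other changes was not tested.

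The labels do not say that replicate numbers pair the samples. Deviations of same-numbered samples correlated at 0.072, 0.285 and 0.041, and not every library correlated best with its own number. The fit with a replicate block gave 800 genes higher and 500 lower and the same 2 members lower (PLAT -2.38, PLAU -0.92). Under the block SERPINF2 was called higher (0.68, adjusted p = 0.0219), as it also was without S-AlgLung replicate 3 and no block (0.81, adjusted p = 0.003259). These were the only 2 of its 17 alternatives with a call.
The alternatives with overlapping-gene reads subtracted, with pseudogene reads added and for the genes that are no members were chosen after seeing the data. Low read numbers limit the precision of rare genes such as PLAT in S-AlgLung (14 to 17 reads per library), CPB2, SERPINB7, SERPINB2 and PLG.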
